A study of Mus musculus with 13 samples.

Results

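The genes described here are 8 members of the sterol pathway, namely the enzymes Hmgcs1, Idi1, Fdps, Fdft1, Sqle, Lss and Cyp51 and the regulator Insig1. They were taken by name from a table of 24015 gene symbols and followed through 13 libraries of mouse haematopoietic stem cells (HSCs). In the study, single Vwf+ HSCs, which transcribe the von Willebrand factor gene, were transplanted from mouse marrow, and recipients were classed by the lineages rebuilt over 16 weeks. The groups were PLT-HSC from recipients with P-restricted reconstitution (3 libraries), PEM-HSC from recipients with PEM-restricted reconstitution (6 libraries) and MUL-HSC from recipients with multilineage reconstitution (4 libraries). All groups share the strain label C57BL/6 and the sort phenotype LSKFlt3-CD150+CD48-CD45.2+Gata1-, so they hold donor-derived, primitive-phenotype cells without the Gata1 signal. Each library was made from 100 sorted marrow cells. Since every group descends from single transplanted cells that were Vwf+, none of them stands for HSCs at large, and no untransplanted group was analysed here.

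Cholesterol is built from acetyl-CoA through the mevalonate pathway. Its first enzymes, HMG-CoA synthase among them, lead to mevalonate, later enzymes turn it into isoprene units and farnesyl diphosphate, squalene synthase commits these to sterols, and the enzymes after it close and trim the sterol rings. When sterol in the endoplasmic reticulum falls, the transcription factor SREBP2 is released from INSIG proteins, processed and sent to the nucleus, where it raises transcription of the enzymes and of INSIG1 itself. Isoprenoids from the middle of the pathway also anchor small GTPases to membranes.

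Gene counts per library ran from 29017378 to 32437607 in PLT-HSC, from 22913695 to 28013676 in PEM-HSC and from 16371921 to 41367057 in MUL-HSC. Levels are given as CPM, the gene's count scaled to the library's total of gene counts. The 10 HSC markers examined summed to 2791 to 3779 CPM in PLT-HSC, 2663 to 3214 CPM in PEM-HSC and 2013 to 2844 CPM in MUL-HSC. Of these 10, 9 had a positive estimate in PLT-HSC and 9 in PEM-HSC against MUL-HSC, beside 52.4% and 50.7% of all genes. With edgeR or DESeq2, 0 passed. Slamf1, Mecom and Meis1 had an unadjusted edgeR p under 0.05 in both comparisons, and Fgd5 in that of PEM-HSC. That makes 3 of 10 in PLT-HSC and 4 of 10 in PEM-HSC, beside 7.37% and 5.93% of all genes. Transcripts of Gata1, Flt3 and Cd48, whose products the sort excludes, summed to 6.47 to 25.0 CPM in PLT-HSC, 2.94 to 22.4 CPM in PEM-HSC and 13.4 to 89.7 CPM in MUL-HSC. Of these 3 genes 0 passed with edgeR, with an unadjusted p under 0.05 for Flt3 in each comparison, while DESeq2 called Flt3 in PLT-HSC against MUL-HSC. Over all genes, DESeq2 called far more than edgeR in each comparison, with the counts given in the last paragraph. Flt3 stood at 0 to 0.0308 CPM in PLT-HSC, 0 to 5.34 CPM in PEM-HSC and 0.428 to 39.2 CPM in MUL-HSC. The highest of these sums, 87.9 and 89.7 CPM, were in MUL-HSC replicates 1 and 2, so the members' estimates were also computed without them. The labels name no batch. In bulk libraries, fewer expressing cells and less RNA per cell cannot be told apart.

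Promoter sequence was at hand for 5 of the 8 members, and 3 stretches are shown because they belong to the member with no counts at all, to the member with counts in part of the libraries, and to the regulator. They come from RefSeq on build GRCm38.p6 and stop before the earliest annotated start of the gene. They lie at chr13:119690101-119690350 on the plus strand for Hmgcs1, chr10:76531355-76531564 on the plus strand for Lss and chr5:28071162-28071362 on the plus strand for Insig1. Capitals mark the sterol element TCACNCCAC, a form of the SREBP binding sequence in which N is any base, and the NF-Y box CCAAT, each on either strand, so that a CCAAT on the opposite strand reads ATTGG.
Hmgcs1: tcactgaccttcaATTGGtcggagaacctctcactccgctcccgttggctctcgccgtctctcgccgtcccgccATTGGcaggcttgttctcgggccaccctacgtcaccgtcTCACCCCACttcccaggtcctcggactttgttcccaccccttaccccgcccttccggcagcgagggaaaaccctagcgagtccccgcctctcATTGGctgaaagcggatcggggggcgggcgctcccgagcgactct
Lss: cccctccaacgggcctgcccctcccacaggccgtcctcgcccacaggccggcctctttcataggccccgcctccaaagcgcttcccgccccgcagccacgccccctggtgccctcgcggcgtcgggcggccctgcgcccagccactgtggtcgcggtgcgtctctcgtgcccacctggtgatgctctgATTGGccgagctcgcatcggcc
Insig1: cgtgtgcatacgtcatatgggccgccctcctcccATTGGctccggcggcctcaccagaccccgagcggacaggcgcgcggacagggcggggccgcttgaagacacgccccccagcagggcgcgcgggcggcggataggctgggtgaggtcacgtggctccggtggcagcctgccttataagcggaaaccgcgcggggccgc

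Over the 250 bases before the start, the Hmgcs1 promoter held 1 match to TCACNCCAC and the promoters of Idi1, Lss, Cyp51 and Insig1 held 0. Of 32851 promoter windows of this length in the table, 1.05% held a match. CCAAT stood in all 5 members' windows, with 3 matches in Hmgcs1, 2 in Idi1 and 1 each in Lss, Cyp51 and Insig1, against 33.8% of all windows. In Idi1, Cyp51, Insig1 and Lss an earlier annotated start lies inside the window, with 145, 201, 201 and 210 bases before it. The matches of Idi1 and Cyp51 lay past that start, and the bases before it held none. Those of Insig1 and Lss lay before it. These are matches of letters and show no binding, and a window without a match says nothing about the factor.

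The pathway's first member in order, Hmgcs1, which encodes the cytosolic HMG-CoA synthase, had 0 counts in each of the 13 libraries. Over 348456171 gene counts in all, this allows a level of up to 0.00861 CPM over the series, and of up to 0.0725 to 0.183 CPM in a single library, where 3 counts set the limit and counting error alone is covered. In all, 8230 symbols were at 0 in every library, and Hmgcs1, among them, could not be tested. In RefSeq's gene order on chromosome 13, the protein-coding genes next to it, Ccl28 on one side and Nim1k and Zfp131 on the other, also had 0 counts in every library. On the side of Ccl28, Gm7120 came next, with a mean of 3.72 CPM and counts in 8 libraries. It was followed by 4833420G17Rik at 125 CPM and by Paip1, a regulator of translation, at 50.8 CPM, both with counts in all 13 libraries. Beyond Zfp131, the 3 further genes listed in the table, AF067063, Tcstv1 and B020031M17Rik, had 0 counts as well. Whether the cells lacked Hmgcs1 transcript or its reads were not counted was not tested.

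**Figure D1:**
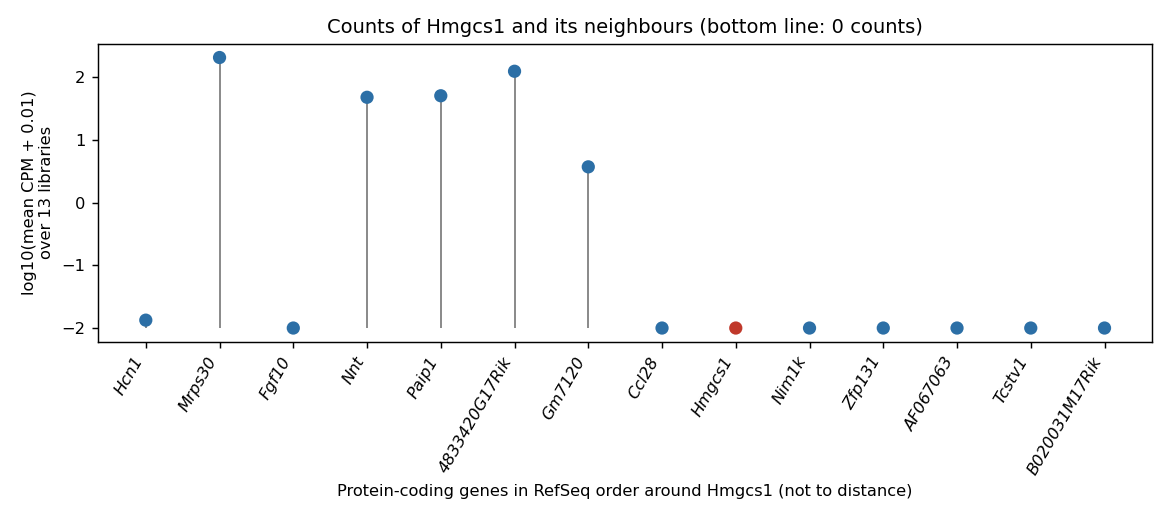
Mean level over 13 libraries, as log10 of CPM plus 0.01 on the vertical axis, for Hmgcs1 (red) and protein-coding neighbours (blue) in gene order, with distances not drawn. Hmgcs1, Ccl28 on its left and the 5 genes drawn on its right lie at 0 counts, as does Fgf10, while Paip1 stands at 50.8 CPM and 4833420G17Rik at 125 CPM.

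The other 7 members had enough counts to be tested. Annotated exons of Fdft1 overlap those of Ctsb, and exons of Cyp51 those of Akap9, and as the strand mode of the counting is not given, reads from the shared stretches cannot be told apart. Per kilobase of annotated exon, the highest of them over all libraries was Fdps at 56.9 CPM per kilobase, followed by Sqle at 27.3, Fdft1 at 16.5, Cyp51 at 9.56, Insig1 at 5.23, Idi1 at 4.58 and Lss at 1.03 CPM per kilobase. In 5 of the 7, namely Sqle, Fdft1, Lss, Cyp51 and Insig1, the group means ran from PEM-HSC through PLT-HSC to MUL-HSC in falling order. Idi1 had the order PEM-HSC, MUL-HSC, PLT-HSC, and Fdps the order MUL-HSC, PEM-HSC, PLT-HSC. No neighbours in these orders differed at an adjusted p under 0.05 in edgeR's quasi-likelihood test.

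**Figure D2:**
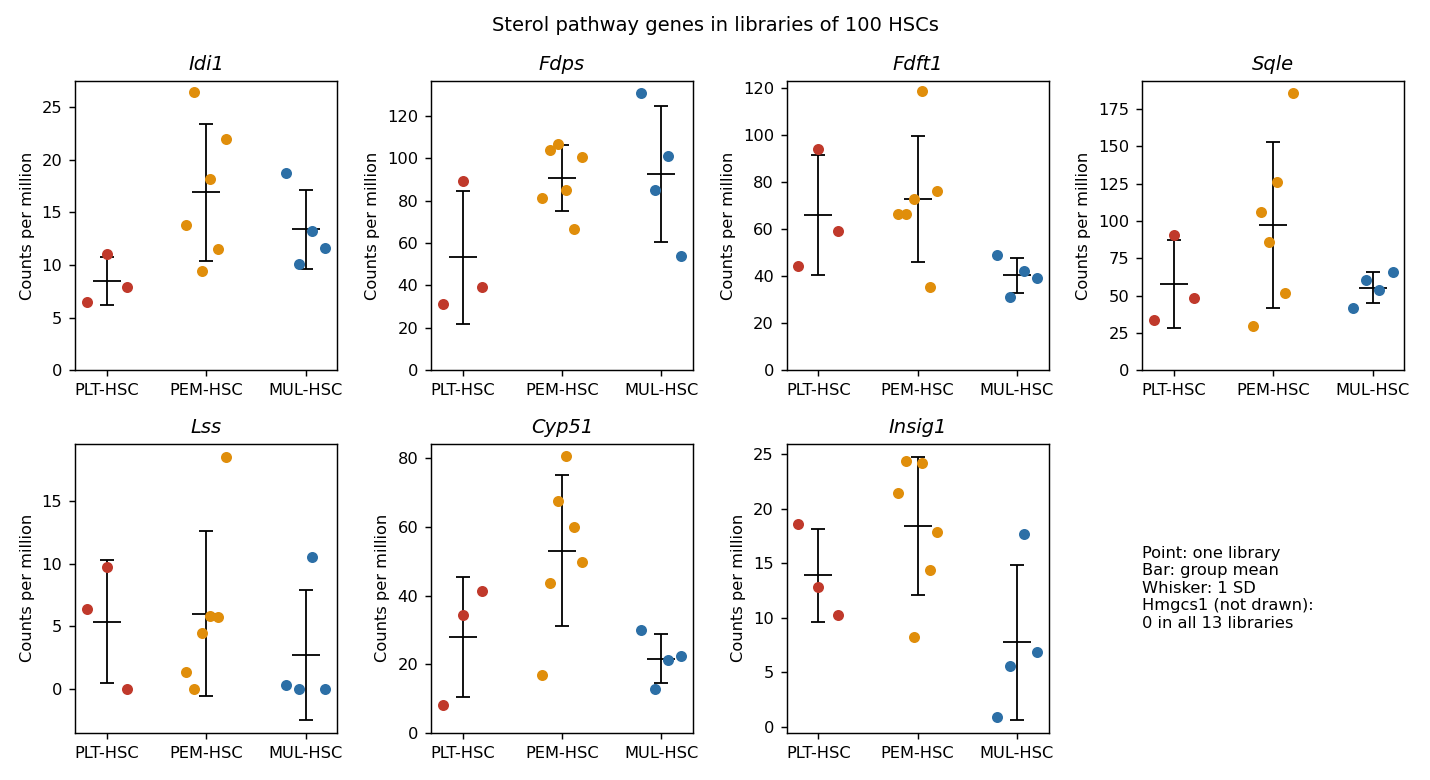
CPM (vertical axes, each with its own scale) of the 7 members with counts, 1 point per library, for PLT-HSC, PEM-HSC and MUL-HSC, with the group mean as a bar and 1 SD as whiskers. The groups overlap in every panel, and the widest spread in PEM-HSC is that of Sqle, between 29.9 and 186 CPM.

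Among the enzymes before squalene, Idi1 interconverts the isoprene units. It had 6.48, 11.01 and 7.92 CPM in PLT-HSC and 9.40 to 26.4 CPM with a median of 16.0 in PEM-HSC, against 18.7, 10.1, 13.2 and 11.6 CPM in MUL-HSC. PLT-HSC replicates 1 and 3 lay below every library of the other groups, and replicate 2 lay within their range. Fdps, which makes farnesyl diphosphate, the branch point towards sterols and prenylated proteins, had 31.2, 89.3 and 39.1 CPM in PLT-HSC and 66.8 to 107 CPM with a median of 92.8 in PEM-HSC, against 131, 84.8, 101 and 53.9 CPM in MUL-HSC. Here too PLT-HSC replicates 1 and 3 lay below all libraries of the other groups and replicate 2 among them.

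Fdft1, the squalene synthase that commits the pathway to sterols, had 44.5, 94.1 and 59.1 CPM in PLT-HSC and 35.3 to 119 CPM with a median of 69.6 in PEM-HSC, against 49.0, 31.2, 42.3 and 39.0 CPM in MUL-HSC. In PEM-HSC 5 of 6 libraries and in PLT-HSC 2 of 3 lay above the highest MUL-HSC library. Sqle, the squalene epoxidase, a rate-controlling step of the pathway, had 33.8, 90.8 and 48.2 CPM in PLT-HSC and 29.9 to 186 CPM with a median of 96.0 in PEM-HSC, against 41.5, 60.3, 53.5 and 65.9 CPM in MUL-HSC. The MUL-HSC libraries were close together and lay inside the range of both other groups.

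Lss, the lanosterol synthase that closes the sterol rings, was at or near 0 in many libraries. It had 6.34, 9.73 and 0 CPM in PLT-HSC and 0 to 18.5 CPM with a median of 5.08 in PEM-HSC, against 0.315, 0, 10.5 and 0 CPM in MUL-HSC. The 4 libraries at 0 were PLT-HSC replicate 3, PEM-HSC replicate 2 and MUL-HSC replicates 2 and 4, so each group held both libraries with and libraries without counts.

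Cyp51, the lanosterol demethylase that follows, had 8.20, 34.3 and 41.4 CPM in PLT-HSC and 16.9 to 80.6 CPM with a median of 54.8 in PEM-HSC, against 30.1, 12.7, 21.3 and 22.3 CPM in MUL-HSC. In PEM-HSC 5 of 6 libraries lay above every MUL-HSC library, and replicate 1 lay among them. Insig1, the regulator that holds SREBP in the endoplasmic reticulum and is itself an SREBP target, had 18.6, 12.8 and 10.2 CPM in PLT-HSC and 8.19 to 24.4 CPM with a median of 19.7 in PEM-HSC, against 0.856, 5.60, 17.7 and 6.84 CPM in MUL-HSC. Of the MUL-HSC libraries, replicate 3 lay within the range of the other groups and replicates 1, 2 and 4 below all of it.

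In PLT-HSC against MUL-HSC, none of the 7 tested members passed edgeR's quasi-likelihood test at an adjusted p under 0.05, DESeq2 also passed 0, and 0 had an unadjusted p under 0.05. Over all 12536 genes tested, edgeR called 0.0479% and 7.37% had an unadjusted p under 0.05. Fdft1 averaged 65.9 ± 25.5 CPM in PLT-HSC (SD, n = 3) and 40.4 ± 7.41 CPM in MUL-HSC (SD, n = 4), a log2 fold change of 0.72 (95% interval -0.08 to 1.53, edgeR adjusted p = 0.747). Fdps averaged 53.2 ± 31.5 CPM in PLT-HSC and 92.7 ± 32.2 CPM in MUL-HSC, a log2 fold change of -0.78 (95% interval -1.61 to 0.06, edgeR adjusted p = 0.723). The estimates for these successive enzymes thus had opposite signs, and both intervals include 0. The other log2 fold changes were 1.07 for Lss (95% interval -3.78 to 5.93), 0.86 for Insig1, 0.35 for Cyp51, 0.09 for Sqle and -0.65 for Idi1. The estimate for Sqle was -0.52 without PLT-HSC replicate 2.

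In PEM-HSC against MUL-HSC, 0 members passed with edgeR and 0 with DESeq2. An unadjusted p under 0.05 was found for 2 of 7, Cyp51 and Fdft1, with edgeR, and for 2 with DESeq2. Of all genes, 0.00798% were called and 5.93% had an unadjusted p under 0.05. Cyp51 averaged 53.0 ± 22.0 CPM in PEM-HSC (SD, n = 6) and 21.6 ± 7.12 CPM in MUL-HSC (SD, n = 4), a log2 fold change of 1.27 (95% interval 0.24 to 2.31, edgeR adjusted p = 0.745). Fdft1 averaged 72.6 ± 26.8 CPM in PEM-HSC and 40.4 ± 7.41 CPM in MUL-HSC, a log2 fold change of 0.82 (95% interval 0.12 to 1.52, edgeR adjusted p = 0.768). Neither difference passed after adjustment over all genes. Insig1 had an estimate of 1.24 (95% interval -0.29 to 2.78), Lss of 1.13, Sqle of 0.79 and Idi1 of 0.31, and Fdps had -0.07. Without MUL-HSC replicates 1 and 2 together, 0 members had an unadjusted p under 0.05 in this comparison. Leaving out MUL-HSC replicate 2 alone also gave 0, while leaving out replicate 1 alone gave 2. Without PEM-HSC replicate 4 the count was 1. It was 3 when PEM-HSC replicate 1, PEM-HSC replicate 5 or MUL-HSC replicate 3 was left out alone. Positive estimates numbered 6 of 7 members, against 50.7% of all genes, and the members' median was 0.82 against 0.01 over all genes.

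In PLT-HSC against PEM-HSC, 0 members passed with edgeR or DESeq2 and 0 had an unadjusted p under 0.05. Of all genes, edgeR called 0% and 3.73% had an unadjusted p under 0.05. All 7 estimates were negative, against 48.5% of all genes, with a median of -0.70 against 0.02 over all genes. The largest in size were -0.96 for Idi1 (95% interval -2.32 to 0.40), -0.92 for Cyp51 (95% interval -2.05 to 0.21) and -0.71 for Fdps (95% interval -1.50 to 0.07), and the edgeR adjusted p was 1 for every member. Sqle had -0.70, Insig1 -0.38, Fdft1 -0.10 and Lss -0.05. The negative count was 5 without PLT-HSC replicate 3. The 3 comparisons share libraries pairwise, so their counts of signs are not separate evidence. In PLT-HSC against MUL-HSC, 5 of 7 were positive, against 52.4% of all genes, with a median of 0.35 against 0.04.

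**Figure D3:**
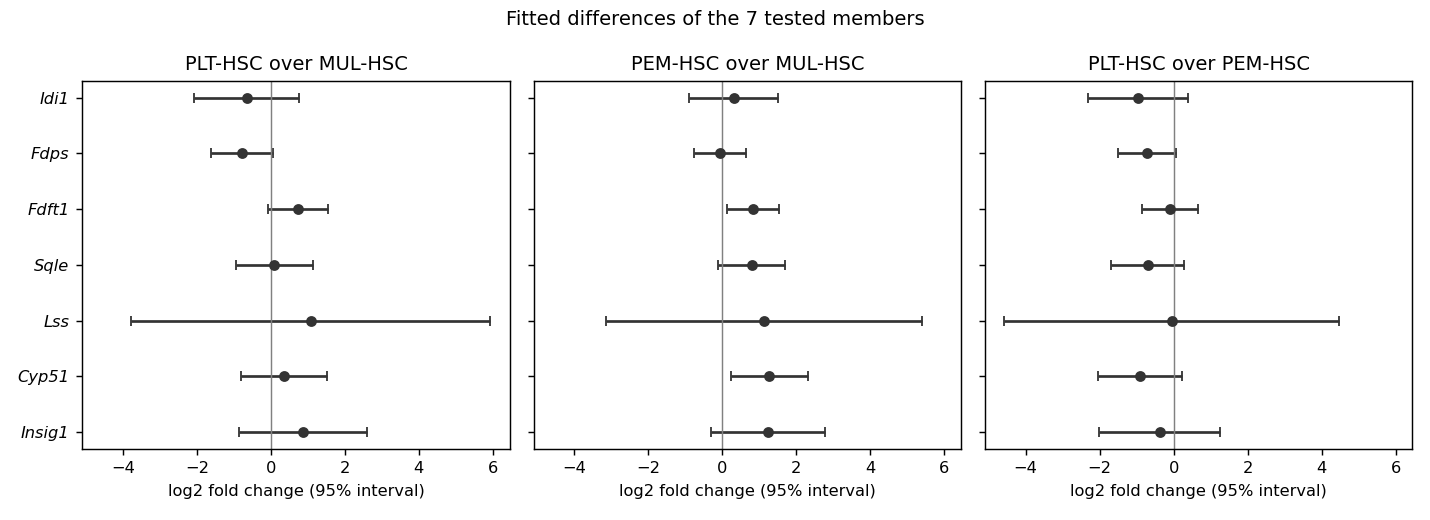
Log2 fold change (horizontal axis) with its 95% interval for the 7 tested members, in PLT-HSC over MUL-HSC, PEM-HSC over MUL-HSC and PLT-HSC over PEM-HSC. The intervals for Cyp51 and Fdft1 in PEM-HSC over MUL-HSC lie above 0 before adjustment over all genes, and the interval for Lss is the widest in each panel.

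No member's libraries were fully apart between groups in any comparison. Over all genes tested, the groups did not overlap for 6.79% in PLT-HSC against MUL-HSC, 1.49% in PEM-HSC against MUL-HSC and 2.16% in PLT-HSC against PEM-HSC. The summed level of the members was 149 to 342 CPM in PLT-HSC, 231 to 471 CPM in PEM-HSC and 200 to 272 CPM in MUL-HSC. Its highest libraries were PEM-HSC replicates 6 and 4, where 7 and 6 of the 7 members stood above their own median over the 13 libraries. Its lowest was PLT-HSC replicate 1, where 3 members, Idi1, Fdps and Cyp51, had their lowest value of the series. In MUL-HSC replicate 2, 0 members stood above their median.

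**Figure D4:**
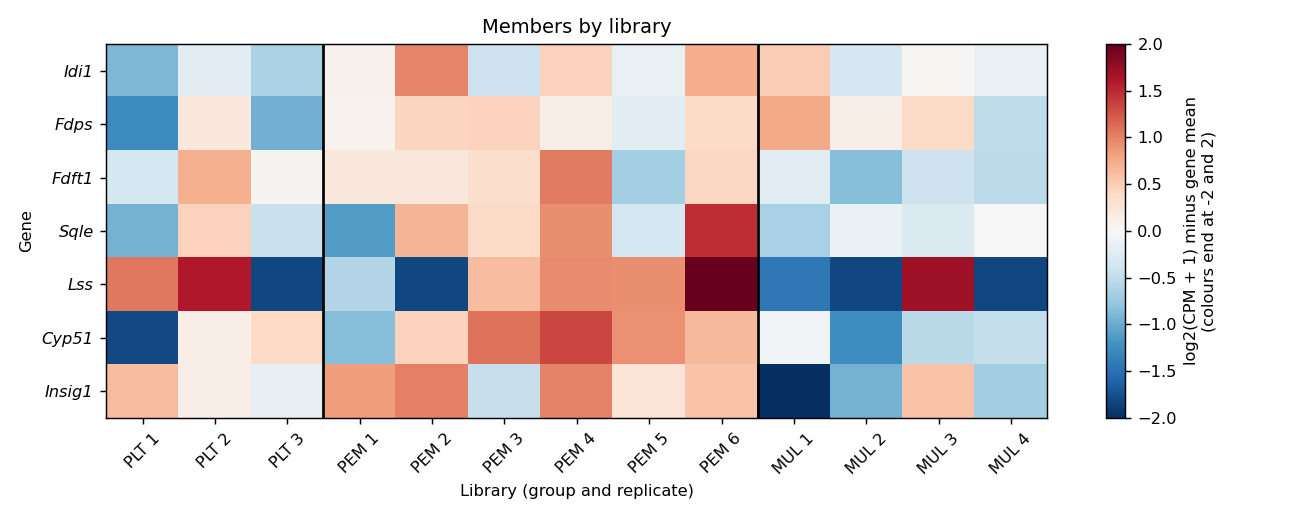
Level of each member (rows) in each library (columns, grouped as PLT-HSC, PEM-HSC and MUL-HSC), coloured by log2 of CPM plus 1 after subtraction of the gene's mean, with colours ending at -2 and 2. PEM-HSC replicates 4 and 6 are above the mean for all 7 members, and Lss switches between extremes within every group.

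The members varied together in part. Over the 13 libraries, 20 of the 21 pairs of members had a positive Pearson correlation of log2 CPM, with a median of 0.38 and a range of -0.24 to 0.73. The highest was that of Idi1 with Fdps and the lowest that of Fdps with Insig1. After removal of the group means, 16 of 21 were positive and the median was 0.26, with a range of -0.37 to 0.65. These values describe 13 libraries that share depth and handling, and the pairs share genes.

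Among 11681 other genes, those most like the members' joint level over the 13 libraries, measured as the Pearson correlation of log2 CPM with the mean standardised level of the 7 members, were Kdm8 (0.89), Asb13 (0.83), Coro1b (0.79), Dhodh (0.78) and Dnajc4 (0.77). After removal of group means they were Dnajc4 (0.93), Gstz1 (0.93), Mettl6 (0.87), Kdm8 (0.86) and Tmem138 (0.85). Of the other synthesis enzymes, Msmo1, a sterol demethylase that acts after Cyp51, ranked 14th by the first measure (0.74) and 11th by the second (0.81). Likeness over so few libraries is a description.

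The rest of the synthesis pathway was represented by 15 further genes, all of which were tested, and 0 passed in any comparison with edgeR. DESeq2 called Mvd against MUL-HSC in both PLT-HSC and PEM-HSC. Its calls here and below are to be read beside its own count over all genes, which was far above edgeR's. In PLT-HSC against MUL-HSC, 14 estimates were negative and 1 positive, where 52.4% of all genes were positive. The median was -0.32 against 0.04 over all genes, and 2 of 15 had an unadjusted edgeR p under 0.05, beside 7.37% of all genes. For 3 of the 15, Mvd among them, the libraries of these groups did not overlap, beside 6.79% of all genes. Leaving out PLT-HSC replicate 1 gave 9 negative estimates, and leaving out MUL-HSC replicate 3 gave 8. In PEM-HSC against MUL-HSC 11 were negative, where 50.7% of all genes were positive. The median was -0.19, and the negative count was 7 without the same library. In PLT-HSC against PEM-HSC 10 were negative, beside 48.5% of all genes, with a median of -0.24. The genes with the highest levels, Acat1, a mitochondrial acetyl-CoA acetyltransferase, and Lbr, which encodes the lamin B receptor with sterol reductase activity, averaged 461 and 308 CPM over all libraries, with log2 fold changes of -0.05 and -0.32 in PLT-HSC against MUL-HSC.

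Ebp, a sterol isomerase, had 53.4, 60.2 and 89.2 CPM in PLT-HSC and 82.4 to 121 CPM in PEM-HSC, against 84.1, 140, 108 and 89.1 CPM in MUL-HSC. PLT-HSC replicates 1 and 2 lay below all other libraries, and the log2 fold change was -0.67 against MUL-HSC (edgeR adjusted p = 0.645) and -0.66 against PEM-HSC (edgeR adjusted p = 1). Mvd, the mevalonate diphosphate decarboxylase, stood at 1.79, 6.20 and 12.3 CPM in PLT-HSC, at 0 to 13.5 CPM in PEM-HSC and at 0 in all 4 MUL-HSC libraries. Against a floor of 3 counts over the MUL-HSC group, its mean was 239-fold higher in PLT-HSC and 178-fold higher in PEM-HSC. The floor covers counting error only and leaves out the spread between libraries. These ratios are therefore not lower bounds on a difference between the groups. In PEM-HSC, replicate 4 was at 0 as well. Mvd did not pass in edgeR against MUL-HSC (adjusted p = 0.297 for PLT-HSC and 0.51 for PEM-HSC).

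**Figure D5:**
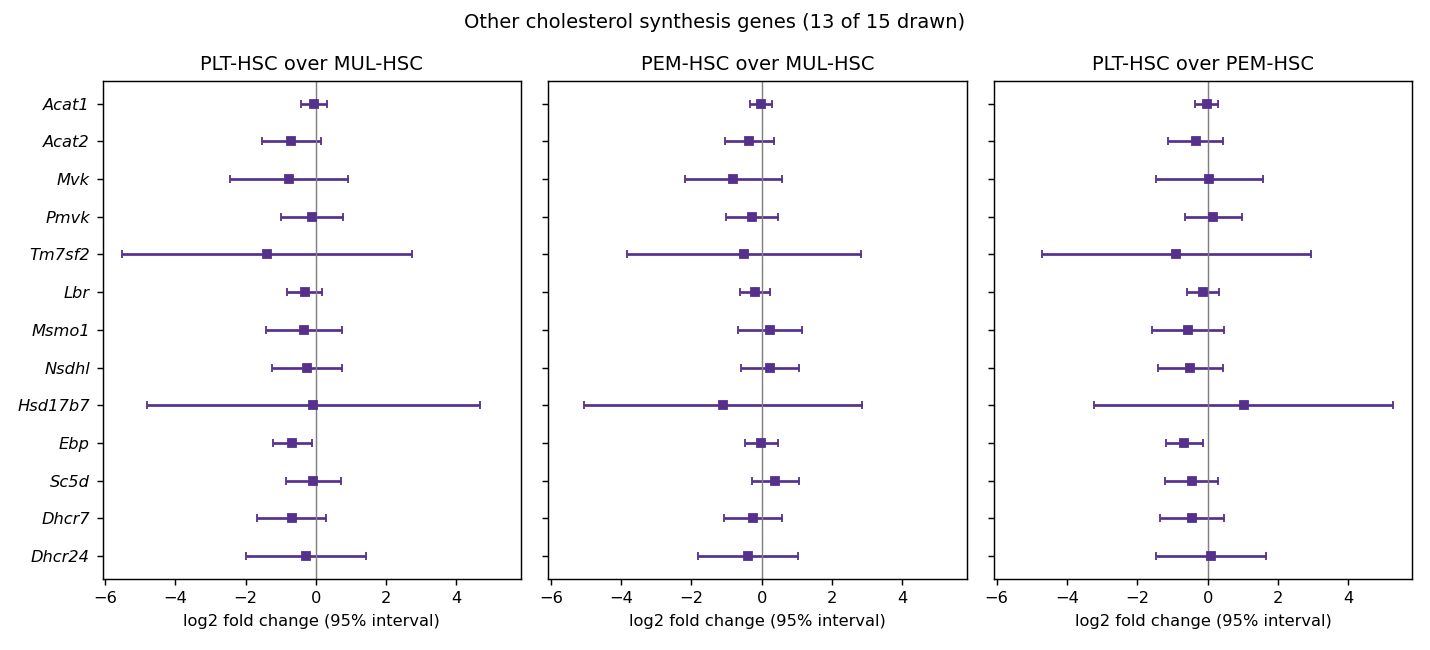
Log2 fold change (horizontal axis) with its 95% interval for 13 of the 15 further synthesis genes in the same 3 comparisons, where Mvd is among the 2 not drawn, as it had 0 counts in every MUL-HSC library. In PLT-HSC over MUL-HSC all 13 points lie below 0 and the interval of Ebp excludes 0 before adjustment over all genes.

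Of 12 genes of the SREBP machinery and sterol-regulated degradation, 12 were tested and 0 passed in any comparison with edgeR or DESeq2. An unadjusted edgeR p under 0.05 was found for 1 gene, March6, in both comparisons of PLT-HSC. Of all genes, 7.37% had one against MUL-HSC and 3.73% against PEM-HSC. Positive estimates numbered 6 in PLT-HSC against MUL-HSC, 8 in PEM-HSC against MUL-HSC and 5 in PLT-HSC against PEM-HSC. Over all genes, 52.4% and 50.7% were positive in PLT-HSC and PEM-HSC against MUL-HSC, and 48.5% were negative in PLT-HSC against PEM-HSC. March6, a ubiquitin ligase that degrades squalene epoxidase, had 108, 95.9 and 143 CPM in PLT-HSC and 60.7 to 102 CPM in PEM-HSC, against 77.0, 84.2, 83.0 and 54.5 CPM in MUL-HSC. PLT-HSC lay above MUL-HSC in all libraries, with a log2 fold change of 0.60 (edgeR adjusted p = 0.647), and the estimate against PEM-HSC was 0.58 (edgeR adjusted p = 1). In PLT-HSC against MUL-HSC, 1 of the 12 genes of this list did not overlap, beside 6.79% of all genes. The most abundant of the list, Rnf139 and Insig2, averaged 141 and 92.9 CPM over all libraries, and their log2 fold changes in PLT-HSC against MUL-HSC were 0.26 and 0.40. Srebf2, which encodes SREBP2, had log2 fold changes of -0.23 in PLT-HSC and -0.07 in PEM-HSC against MUL-HSC.

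Of 12 uptake and transport genes, 11 were tested, 0 passed with edgeR or DESeq2 and 0 had an unadjusted p under 0.05 with either. Positive were 7 in PLT-HSC against MUL-HSC and 8 in PEM-HSC against MUL-HSC, beside 52.4% and 50.7% of all genes. In PLT-HSC against PEM-HSC 6 were positive, where 48.5% of all genes were negative. The most abundant of this list, Npc2, a lysosomal cholesterol carrier, and Lipa, the lysosomal acid lipase, averaged 199 and 83.6 CPM over all libraries. Of 12 isoprenoid branch genes, 12 were tested, and again 0 passed and 0 had an unadjusted p under 0.05 with either tool. Fnta and Coq2 were the most abundant, at 427 and 128 CPM over all libraries.

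Of 12 efflux, esterification and oxysterol genes, 9 were tested and 0 passed with edgeR, while DESeq2 called Apoe against MUL-HSC in both PLT-HSC and PEM-HSC. Apoe, the apolipoprotein that carries cholesterol out of cells, had 1693, 2568 and 1118 CPM in PLT-HSC and 1015 to 1979 CPM in PEM-HSC, against 740, 463, 700 and 479 CPM in MUL-HSC. Its lowest value in PLT-HSC and PEM-HSC exceeded its highest in MUL-HSC. Of all genes, 6.79% did not overlap in PLT-HSC against MUL-HSC and 1.49% in PEM-HSC against MUL-HSC. The log2 fold changes of Apoe were 1.62 in PLT-HSC (edgeR adjusted p = 0.0911) and 1.24 in PEM-HSC (edgeR adjusted p = 0.37). The summed level of 10 macrophage markers split the groups in the same way, at 80.8 to 252 CPM in PLT-HSC, 91.6 to 389 CPM in PEM-HSC and 36.6 to 61.9 CPM in MUL-HSC. Of those markers 8 were tested, with 5 positive in PLT-HSC and 8 in PEM-HSC against MUL-HSC, beside 52.4% and 50.7% of all genes. By edgeR 0 were called, while DESeq2 called Cd68 in both. Cd68 stood at 26.3 to 185 CPM in PLT-HSC, 20.6 to 240 CPM in PEM-HSC and 11.4 to 19.7 CPM in MUL-HSC. Of the other markers, Csf1r was at 0 in 12 of 13 libraries and at 0.0358 CPM in PEM-HSC replicate 4. Emr1 was at 0 in 10 libraries and reached 12.4 CPM in PEM-HSC replicate 3. C1qb stood at 2.14 to 20.1 CPM in PLT-HSC, 1.59 to 29.4 CPM in PEM-HSC and 0 to 7.16 CPM in MUL-HSC. C1qc stood at 2.07 to 12.5 CPM in PLT-HSC, 3.62 to 24.6 CPM in PEM-HSC and 0 to 14.8 CPM in MUL-HSC. The part of macrophage transcripts in the Apoe level was not tested. Soat1, which esterifies cholesterol for storage, had 6.86, 10.8 and 3.24 CPM in PLT-HSC and 6.64 to 90.5 CPM in PEM-HSC, against 12.2, 30.8, 34.8 and 23.7 CPM in MUL-HSC. PLT-HSC lay below MUL-HSC in all libraries, with a log2 fold change of -1.82 (edgeR adjusted p = 0.646), and against PEM-HSC the estimate was -2.39 (edgeR adjusted p = 1). In PLT-HSC against MUL-HSC, 2 of the 9 tested genes of this list did not overlap, beside 6.79% of all genes. Abcg1, a sterol exporter, averaged 190 CPM over all libraries, with a log2 fold change of -0.41 in PLT-HSC and -0.15 in PEM-HSC against MUL-HSC.

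Of 12 fatty acid synthesis genes, targets largely of the related factor SREBP1, 12 were tested and 0 passed with edgeR, while DESeq2 called Acacb in PEM-HSC against MUL-HSC. Acacb, a mitochondrial-surface acetyl-CoA carboxylase, averaged 3.68 CPM in PLT-HSC, 3.54 CPM in PEM-HSC and 0.259 CPM in MUL-HSC, and against MUL-HSC its edgeR adjusted p was 0.647 for PLT-HSC and 0.797 for PEM-HSC. Elovl5 and Scd2 were the most abundant, at 104 and 100.2 CPM over all libraries.

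Transcripts of dividing cells varied widely between libraries. The sum of 12 mitosis genes was 47.0 to 1081 CPM in PLT-HSC, 188 to 1470 CPM in PEM-HSC and 206 to 996 CPM in MUL-HSC. The sum did not follow that of the members from library to library. PLT-HSC replicate 1 was lowest in mitosis genes and in members, at 47.0 and 149 CPM, and PEM-HSC replicate 4 was high in both, at 1470 and 458 CPM. In PLT-HSC replicate 3 the mitosis sum was 1081 CPM beside 206 CPM for the members, while in PLT-HSC replicate 2 it was 152 CPM beside 342 CPM. Over the 13 libraries the correlation of single mitosis genes with the members' joint level ran from -0.46 for Bub1 to 0.39 for Cdc20. Of the 12 genes, 11 had a negative estimate in PLT-HSC against MUL-HSC, where 52.4% of all genes had a positive one. In PLT-HSC against PEM-HSC 11 were negative, beside 48.5% of all genes. With edgeR or DESeq2, 0 of the 12 passed. The genes were read in the same libraries, with PLT-HSC replicate 3 far above replicates 1 and 2 in their sum. Their signs are therefore not separate evidence. Neutrophil markers summed to at most 6.17 CPM in PLT-HSC, 14.4 CPM in PEM-HSC and 8.43 CPM in MUL-HSC, erythroid markers to at most 120 CPM in PLT-HSC, 144 CPM in PEM-HSC and 43.5 CPM in MUL-HSC, and platelet markers to 133 to 242 CPM in PLT-HSC, 134 to 236 CPM in PEM-HSC and 116 to 260 CPM in MUL-HSC. The part of these transcripts in the members' levels was not tested.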

How the data were processed

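RNA was measured in 13 libraries: 3 PLT-HSC, 6 PEM-HSC and 4 MUL-HSC, grouped by the labels. Per the labels' protocols, cDNA followed Smart-seq+ and libraries Nextera XT. The values the authors deposited are whole-number read counts by gene symbol with no normalization. The submitters' processing notes name the tools STAR, featureCounts, Trimmomatic and FastQC and build mm9, with versions, annotation and strand mode not given in the sources used here. Exons of other GENCODE M21 genes overlap those of Fdft1 (Ctsb), Cyp51 (Akap9), Idi1, Fdps, Lss and Hmgcs1, and without strand their reads cannot be told apart. The labels name no molecular identifiers, and floors and bounds cover counting error only.

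The 92 ERCC spike-in rows were left out. Counts were scaled by TMM (factors 0.910 to 1.10), filtered with filterByExpr, which left 12536 genes, and fitted in edgeR 4.0.16 (R 4.3.3) by robust quasi-likelihood over all 13 libraries with a term per group. P-values were adjusted by Benjamini-Hochberg over all genes, with calls made below an adjusted p of 0.05. Intervals use the fit's standard error and degrees of freedom. Log2 CPM for likeness had a prior count of 2, and Hmgcs1, without counts, was left out of it. Exon lengths are GENCODE M21's. The procedure was tested on simulated data.

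Named genes are the members and the 5 most alike by each measure. Of each other list of sterol, isoprenoid or fatty acid genes, those with an unadjusted p under 0.05 in any comparison and the 2 most abundant are named. The marker lists do not follow this rule, and some of their genes with an unadjusted p under 0.05 are not named. Msmo1, Srebf2, the neighbours of Hmgcs1 and the marker genes were named after their values were seen. Some genes of the lists are counted but not reported here by name. The members and lists were chosen with earlier results of these data known. Replicates of a group differed beyond sampling noise (lowest chi-square per degree of freedom 163). Nothing in the labels assigns each replicate to its own recipient. If recipients are shared, the p-values reflect technical spread among libraries. Alternatives were DESeq2 1.42.0, RLE scaling, no count filter, 2-group fits, a replicate block and leaving out libraries.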

Additional observations from a re-analysis of the deposited data

Results flagged for a closer look

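Of 14 sets of values examined (7 members in PEM-HSC and in MUL-HSC), 2 held a library far from the others of its group, both for Lss. Chance sets apart about 1 in 20 such sets. PEM-HSC replicate 6 stood at 18.5 CPM, with the next library of its group at 5.84 CPM. MUL-HSC replicate 3 stood at 10.5 CPM, with the next at 0.315 CPM.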

How the results depend on the processing

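Across 19 other settings, 0 members were called in any comparison, so the count of 0, also from 0 to 0 when leaving out 1 library, held for all 3. Of 399 member estimates under these settings, 387 kept their sign. The log2 fold change of Fdps in PEM-HSC against MUL-HSC was 0.017 with the replicate block and 0.24 without MUL-HSC replicates 1 and 2 together, and that of Lss in PLT-HSC against PEM-HSC was 4.32 with the block. Leaving out 1 library, it ran from -0.52 to 0.36 for Sqle in PLT-HSC against MUL-HSC, from -0.25 to 0.17 for Fdps in PEM-HSC against MUL-HSC, and from -0.55 to 0.12 for Fdft1 and -0.88 to 0.72 for Lss in PLT-HSC against PEM-HSC. The cause was not tested.

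Genes called over the whole table numbered 6, 1 and 0 in PLT-HSC against MUL-HSC, PEM-HSC against MUL-HSC and PLT-HSC against PEM-HSC. DESeq2 called 249, 175 and 93 of the 12536 genes fitted. Without the filter the first count was 11. With only the 2 groups fitted the first and second counts were 1 and 0, with the replicate block 2 and 0, and without MUL-HSC replicates 1 and 2 the first was 1. Leaving out 1 library they ran from 1 to 37, 0 to 4 and 0 to 2. Members higher ran from 4 to 5 and 6 to 7, and members lower in PLT-HSC against PEM-HSC from 5 to 7. Other synthesis genes lower ran from 8 to 14, 7 to 11 and 8 to 12. The replicate numbers showed no sign of pairing the libraries: over 10 same-numbered pairs, deviations from group means correlated at -0.13 to 0.05. Such values cannot exclude pairing, as replicates of a group differed beyond sampling noise. The 3 libraries in PLT-HSC leave wide intervals, and small differences were not detectable.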
